A study of Homo sapiens with 4 samples.

Results

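Amino acids enter and leave cells through plasma membrane transporters, and 9 genes for such transporters were followed here in U87 cells, an established human glioblastoma line. The members were the listed genes SLC7A11, SLC3A2, SLC7A5, SLC7A1, SLC1A4, SLC1A5, SLC38A1, SLC38A2 and SLC6A9. Transcripts of the deposited table were assigned to them by identifier in GENCODE v29 and summed per gene, which gave 9 of the 22017 genes in the table. All 9 were among the 16523 genes with a mean of at least 10 over the 4 libraries, and all 9 were tested. Polyadenylated RNA was sequenced 48 h after transfection by lipofection with 50 nM of an oligonucleotide. In 2 libraries it was a mimic of tRF-3009a, a transfer RNA fragment, and the 2 control libraries received single-stranded siGL2 (ssGL2), a strand of an siRNA against firefly luciferase. All cells grew in the same minimal essential medium with added glutamine, non-essential amino acids and serum, and no library was from untransfected cells. The titles give the libraries of each treatment the replicate numbers 1 and 2, and they are called mimic 1, mimic 2, control 1 and control 2.

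SLC3A2 is the CD98 heavy chain, a glycoprotein that carries several light chain transporters to the cell surface. Its light chains include SLC7A5 (LAT1), which exchanges large neutral amino acids such as leucine for glutamine, and SLC7A11 (xCT), which exchanges glutamate for the cystine needed to make glutathione. SLC7A1 (CAT1) takes up arginine and lysine without a heavy chain. SLC1A4 (ASCT1) and SLC1A5 (ASCT2) exchange small neutral amino acids, SLC38A1 (SNAT1) and SLC38A2 (SNAT2) take up glutamine and alanine with sodium, and SLC6A9 (GlyT1) takes up glycine. Many of these genes are known targets of ATF4, a transcription factor made when amino acids are short or the endoplasmic reticulum is stressed, which binds the C/EBP-ATF response element.

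Depth was 28860788 to 33848402 recovered reads per library, and the labels name no separate cultures behind the libraries of a treatment. The p-values therefore measure the spread between these libraries, which may be technical. The libraries stood apart by number, with 8298 genes called between the numbers and 0 between the treatments. The labels name it only as a replicate number and do not say whether it marks a culture, a day or a preparation, and each number holds 1 mimic and 1 control library. The number 2 libraries were therefore also compared with the number 1 libraries. Of 7 glioma line markers 6, all but S100B, were in the table, and none was at 0 in all libraries. SOX2 had low values of 9.35 to 18.0. The mesenchymal filament gene VIM had 121239 to 276546 and the adhesion receptor gene CD44 had 17935 to 41466 in normalized read counts, while GFAP, the astrocyte filament gene, had 12.5 to 29.7. The immune markers PTPRC and CD14 were under 10 in every library.

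Promoter windows are shown first. They were searched after the differences between the numbers had been seen, and a relation of the sites to those differences was not tested. RefSeq windows on GRCh38.p14, from 250 bases before to 50 bases after a gene start, were matched by symbol for 8 of the 9 genes (all but SLC7A11), 14 windows in all. They were searched on both strands for the C/EBP-ATF response element TGATGNAAN, which 1268 of 35116 windows (3.61%) hold. It was found in 5 of the 14 windows, each in a different gene. No match overlapped a match to the antioxidant response element TGANNNNGC, bound by NFE2L2, which 41.8% of all windows hold and 8 of the 14 windows held. The windows of the main transcripts of SLC1A4 (chr2:64989149-64989448, plus strand) and SLC7A1 (chr13:29595639-29595938, minus strand) follow 5′ to 3′ in full, with the match in capitals.
SLC1A4: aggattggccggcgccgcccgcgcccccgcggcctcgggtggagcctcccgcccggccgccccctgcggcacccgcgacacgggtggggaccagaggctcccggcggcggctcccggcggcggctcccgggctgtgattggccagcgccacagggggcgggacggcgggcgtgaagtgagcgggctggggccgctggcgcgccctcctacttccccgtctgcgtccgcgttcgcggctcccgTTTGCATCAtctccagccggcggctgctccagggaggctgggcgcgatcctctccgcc
SLC7A1: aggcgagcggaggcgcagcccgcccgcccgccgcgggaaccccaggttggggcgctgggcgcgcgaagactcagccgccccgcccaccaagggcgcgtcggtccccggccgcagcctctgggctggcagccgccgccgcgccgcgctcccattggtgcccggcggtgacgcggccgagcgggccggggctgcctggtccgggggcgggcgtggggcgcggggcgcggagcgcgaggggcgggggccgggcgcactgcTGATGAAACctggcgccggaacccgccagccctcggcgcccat
The match in SLC1A4 starts at base -8 from the gene start and reads on the opposite strand, and that in SLC7A1 starts at base 8 on the gene's own strand. For the other 3 genes the match is shown in capitals with up to 20 bases on either side, to allow comparison of the sites. They lie in windows at chr11:62881449-62881748 (SLC3A2, plus strand, match on the opposite strand at base 37), chr12:46266467-46266766 (SLC38A1, minus strand, match at base -4) and chr19:46784765-46785064 (SLC1A5, minus strand, match at base -97).
SLC3A2: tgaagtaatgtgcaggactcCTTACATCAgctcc
SLC38A1: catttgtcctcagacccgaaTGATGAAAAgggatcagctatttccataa
SLC1A5: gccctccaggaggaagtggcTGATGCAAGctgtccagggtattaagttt
Not all of these starts were much used. Transcripts that start in the SLC3A2 window summed to 2257 in mimic 2 and 699 in mimic 1, and to 2396 in control 2 and 719 in control 1. The start of SLC3A2-201 and a short transcript beside it, in a window without the element, had 18109 in mimic 2 and 4072 in mimic 1, and 20304 in control 2 and 4094 in control 1. No transcript in the table started in the SLC38A1 window, and the SLC1A5 window belongs to minor transcripts. The windows of SLC7A5, SLC38A2 and SLC6A9 did not hold these letters.

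The question of the design was what the mimic changes, and none of the 9 transporter genes was called between mimic and control. The share of all 16523 genes called in this comparison was also 0.0%, and 26 of them had an unadjusted p under 0.05 with limma. On recovered reads, edgeR and DESeq2 called 0 genes as well, and an unadjusted p under 0.05 was found for 35 genes by edgeR and 23 by DESeq2. These fits also had no term for the replicate number. With the number as a block, 117 genes were called by limma, 91 by edgeR and 5 by DESeq2, none of them a member. In none of the 9 genes were the mimic libraries both above or both below the control libraries, which was the case for 12.4% of all genes tested. This count says nothing about the mimic. Both number 2 libraries lay above both number 1 libraries in each of the 9 genes, so the treatments had to overlap. Every adjusted p of a member was 1.00 (limma with Benjamini-Hochberg adjustment). The median log2 difference, mimic minus control, was -0.06 over the 9 genes and -0.01 over all genes. The spread this test uses is dominated by the distance between the numbers, so its standard errors are wide.

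Of the heavy chain and its 2 member light chains, SLC3A2 (chromosome 11, 62856102 to 62888875, GRCh38) had normalized read counts of 21971 in mimic 2 and 5333 in mimic 1, and 24412 in control 2 and 5627 in control 1. Its log2 difference, mimic minus control, was -0.11 ± 1.02 (SE, n = 2 each), being -0.15 within number 2 and -0.08 within number 1. The light chain gene SLC7A5 (chromosome 16, 87830023 to 87869488) had 19007 in mimic 2 and 1907 in mimic 1, and 20896 in control 2 and 2294 in control 1, a difference of -0.20 ± 1.58. Both genes were lower in the mimic within each number, by a log2 difference far below the distance between the numbers. SLC7A11 (chromosome 4, 138164097 to 138242349) had 8572 in mimic 2 and 1129 in mimic 1, and 9806 in control 2 and 1030.2 in control 1. Its means were 4850.3 ± 5263 in the mimic and 5418 ± 6206 in the control (SD, n = 2 each), so the spread within each treatment exceeded the mean. Its differences within the numbers had opposite signs, -0.19 within number 2 and 0.13 within number 1.

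The cationic amino acid transporter gene SLC7A1 (chromosome 13, 29509410 to 29595688) had 7620.4 in mimic 2 and 4229.9 in mimic 1, and 7796 in control 2 and 4509 in control 1. It was the most even of the 9 across libraries, with a mimic minus control difference of -0.06 ± 0.44. Among the neutral exchangers, SLC1A5 (chromosome 19, 46774883 to 46788594) had 19988 in mimic 2 and 4276 in mimic 1, and 22017 in control 2 and 4996 in control 1. Its difference was -0.18 ± 1.07, and it was lower in the mimic within both numbers. SLC1A4 (chromosome 2, 64988477 to 65023865) had 3185 in mimic 2 and 455 in mimic 1, and 3205 in control 2 and 473 in control 1, so the 2 number 2 libraries were nearly level.

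Of the sodium-coupled glutamine carriers, SLC38A1 (chromosome 12, 46183063 to 46270017) had 40813 in mimic 2 and 12944 in mimic 1, and 41312 in control 2 and 11978 in control 1. SLC38A2 (chromosome 12, 46358189 to 46372867) had 33484 in mimic 2 and 13179 in mimic 1, and 35005 in control 2 and 12077 in control 1. Both stood slightly above the control within number 1 and slightly below it within number 2. The glycine transporter gene SLC6A9 (chromosome 1, 43991500 to 44031467) had 1808 in mimic 2 and 69.2 in mimic 1, and 1758 in control 2 and 126 in control 1. Its difference within number 1, -0.85, was the largest of the set, but it was 0.04 within number 2. Of all genes tested, 11.8% had a larger difference between the treatments in either direction than SLC6A9. Without SLC6A9, the within-number differences of the other 8 genes lay between -0.27 and 0.13. The sign was the same within both numbers for 5 of the 9 genes, all lower in the mimic. The same sign within both numbers, in either direction, was found for 50.0% of all genes tested.

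**Figure D1:**
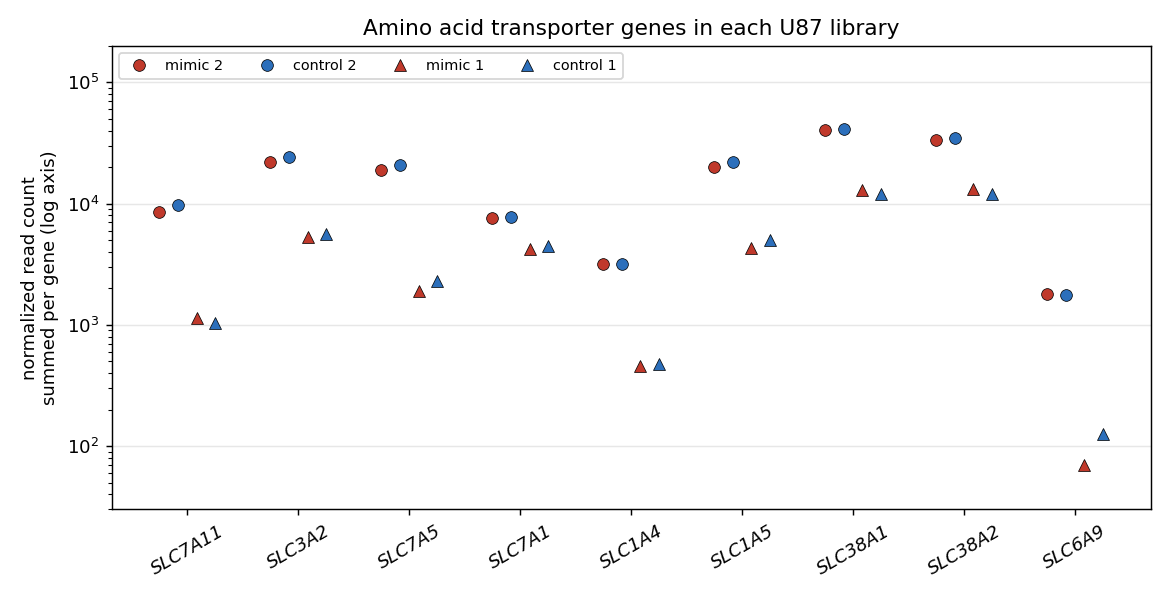
Normalized read counts of the 9 transporter genes (log axis) in each of the 4 libraries, with circles for number 2, triangles for number 1, red for mimic and blue for control. For every gene both circles lie above both triangles, from SLC7A1 (7620.4 and 7796 against 4229.9 and 4509) to SLC6A9 (1808 and 1758 against 69.2 and 126).

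**Figure D2:**
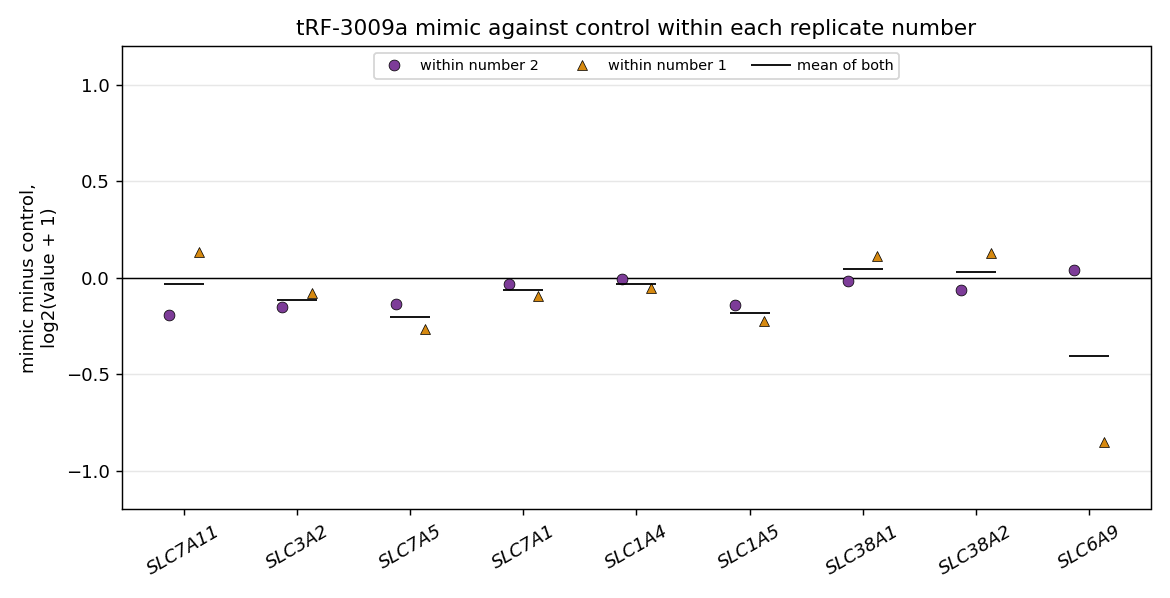
Mimic minus control difference in log2(value + 1) for each transporter gene, within number 2 (circles) and within number 1 (triangles), with a line at their mean. Apart from SLC6A9 within number 1 (-0.85), all points lie between -0.27 and 0.13.

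Between the numbers, by contrast, all 9 transporter genes were higher in the number 2 libraries, and each was called (limma on log2(value + 1), Benjamini-Hochberg adjusted p from 7.33e-08 to 3.05e-05). Of all genes tested, 26.0% were called higher and 24.2% lower in this comparison. Its spread is that between the 1 mimic and the 1 control library of each number. Its standard errors and p-values therefore do not measure how far one replicate number varies from another. In each of the 9 genes both number 2 libraries lay above both number 1 libraries, as they did for 38.5% of all genes. For 8 of the 9 genes the difference was over 2-fold, against 9.39% of all genes higher by that much. The median log2 difference, number 2 minus number 1, was 2.18 over the 9 genes and 0.01 over all genes. The 9 genes were chosen with earlier results of these data known. Their counts, and those of their transcripts, are therefore no independent evidence when set beside the shares of all genes. Fewer cells with a transcript and less of it per cell cannot be told apart in such bulk RNA. In the same libraries the summed glioma line markers had 139808 in mimic 2 and 148490 in control 2, against 290547 in mimic 1 and 319023 in control 1. Most of each sum was VIM. Of the 6 tested 3 were called lower in number 2 and 1 higher. The summed epithelial markers had 522 and 518 in mimic 2 and control 2, against 301 and 373 in mimic 1 and control 1, but their members moved apart. ESRP1 was called higher in number 2 (log2 difference 4.52), EPCAM was called lower (-1.58), and CDH1, KRT8 and KRT18 were not called. The summed endothelial markers had 44.9 and 60.5 in mimic 2 and control 2, against 192 and 165 in mimic 1 and control 1. The neuron markers summed to 1497 to 1644 over the 4 libraries, a sum that holds SNAP25, called lower in number 2 (-3.13), and SYT1, called higher (1.47). The oligodendrocyte markers to 11.4 to 18.1 and the immune markers to 6.72 to 9.36 over the 4 libraries, and CD14 was at 0 in control 2. The part of these differences in the transporter result was not tested.

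SLC6A9 differed most, with a log2 difference of 4.24 ± 0.23 (SE, n = 2 each; adjusted p = 1.46e-06, limma), which was 26.1-fold between the mimic libraries and 13.99-fold between the control libraries. The n = 2 of a number is 1 mimic and 1 control library, and not 2 repeats of that number. SLC6A9 ranked 63 among the 16523 genes tested. SLC7A5 followed with 3.25 ± 0.10, being 9.97-fold higher in mimic 2 than in mimic 1 and 9.11-fold higher in control 2 than in control 1. SLC7A11, its fellow light chain, had 3.09 ± 0.09, which was 7.59-fold between the mimic libraries and 9.52-fold between the control libraries. The heavy chain gene SLC3A2 rose less than either light chain, by 2.08 ± 0.08, or 4.12-fold and 4.34-fold between the mimic and the control libraries. The 3 genes ranked 148 (SLC7A5), 165 (SLC7A11) and 386 (SLC3A2) among all genes tested.

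The neutral exchangers SLC1A4 and SLC1A5 rose by 2.78 ± 0.09 and 2.18 ± 0.10 on the log2 scale. SLC1A4 was 7.002-fold higher between the mimic libraries and 6.78-fold higher between the control libraries, and SLC1A5 was 4.67-fold and 4.41-fold higher. SLC38A1 rose by 1.72 ± 0.08 and SLC38A2 by 1.44 ± 0.08. The smallest difference was that of SLC7A1, at 0.82 ± 0.08 (adjusted p = 3.05e-05, limma), or 1.80-fold between the mimic libraries and 1.73-fold between the control libraries. Of all genes tested, 12.7% were higher in number 2 by more than SLC7A1. With each library left out in turn, all 9 genes stayed called in this comparison, at adjusted p up to 0.00568 (limma).

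**Figure D3:**
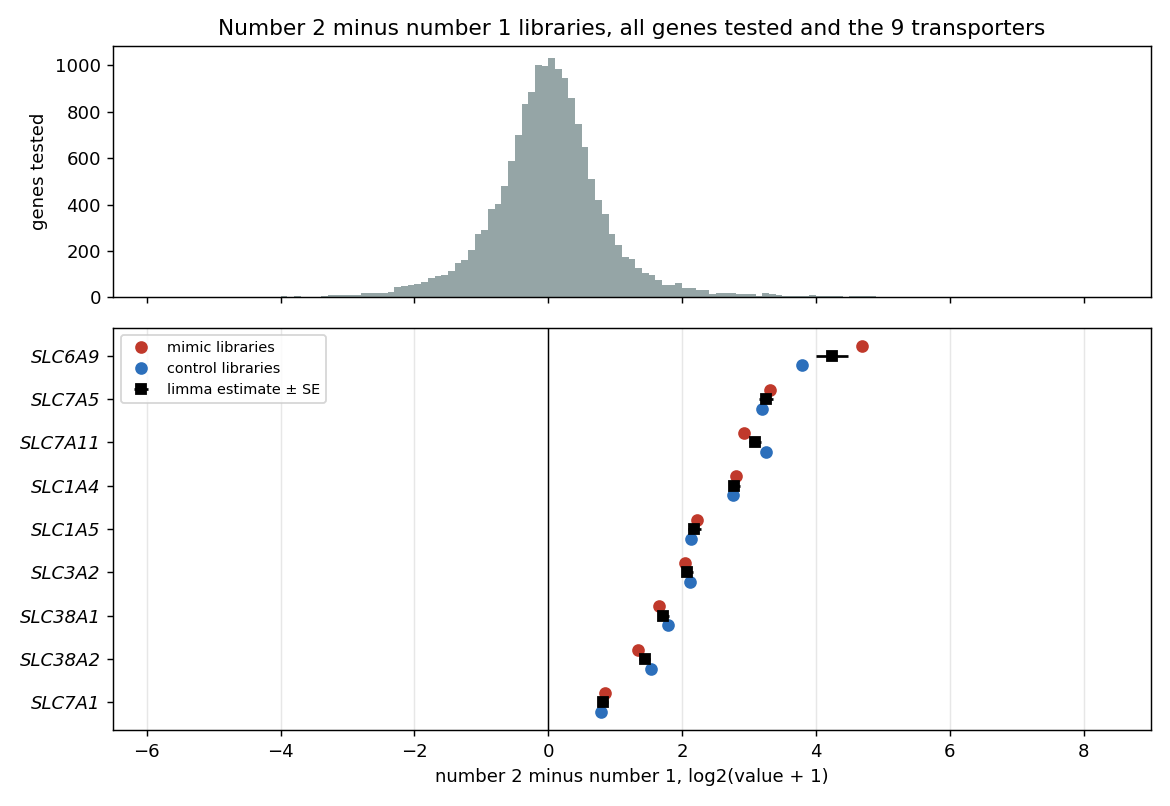
Number 2 minus number 1 difference in log2(value + 1). The upper panel counts all 16523 genes tested, and the lower gives each transporter gene with its mimic libraries (red), its control libraries (blue) and the limma estimate with its standard error (black). All 9 genes lie to the right of 0, from 0.82 (SLC7A1) to 4.24 (SLC6A9), while the median of all genes is 0.01.

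To compare genes with each other, transcript values were divided by transcript length and scaled to the same sum in every library. On this scale the 9 genes summed to 2535 in mimic 2 and 731 in mimic 1, and to 2673 in control 2 and 697 in control 1. SLC3A2 had the highest level in 3 libraries, 774 in mimic 2, 840.3 in control 2 and 202 in control 1. SLC38A2 was first in mimic 1, with 213 against 209 for SLC3A2, and below it in the other 3. SLC6A9 was last in every library, with 44.7 in mimic 2 and 1.66 in mimic 1, and 42.1 in control 2 and 2.95 in control 1. It was level with SLC1A4 in the number 2 libraries (45.9 and 44.4) and far below it in the number 1 libraries (7.12 and 7.42). SLC7A5 stood above SLC7A1 in number 2, with 264 against 64.7 in mimic 2 and 285 against 64.7 in control 2. The order was turned in number 1, with 28.0 for SLC7A5 against 38.2 for SLC7A1 in mimic 1 and 32.4 against 38.3 in control 1. The neighbouring genes SLC3A2 and SLC38A2 in number 1, SLC1A5 and SLC38A1 in number 1, SLC1A5 and SLC38A2 in number 2, and SLC7A11 and SLC1A4 in number 1 changed places between the mimic and the control, so their order did not exceed the spread.

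The ratio of heavy chain to light chain gene levels differed between the numbers. Length-scaled SLC3A2 was 2.43 times the sum of SLC7A5 and SLC7A11 in mimic 2 and 2.42 times in control 2, against 5.86 times in mimic 1 and 5.17 times in control 1. When the light chain genes SLC7A6, SLC7A7 and SLC7A8 were added to the sum, the ratio was 2.25 and 2.21 in mimic 2 and control 2, against 3.19 and 2.93 in mimic 1 and control 1. The number 2 ratios were lower in both treatments and on both sums, and the mimic and control ratios within a number lay close together. The ratio was not tested. The SLC3A2 level also sums retained-intron and processed transcripts, which are not annotated as protein-coding. Its retained-intron transcripts held 5.98% and 5.07% of coding and retained-intron values in mimic 1 and control 1. In mimic 2 and control 2 they held 1.95% and 1.81%. Such transcripts raise the number 1 ratios more than the number 2 ratios, and a ratio of coding transcripts alone was not formed. SLC7A6, the y+LAT2 light chain, was not called between the numbers (log2 difference 0.07 ± 0.11, adjusted p = 0.637, limma). SLC7A7 was called higher in number 2 (3.66 ± 0.87, adjusted p = 0.00714, limma), at normalized read counts of 0 to 40.3. SLC7A8 was called lower (-0.55 ± 0.16, adjusted p = 0.0165, limma). SLC7A5 was 12.9 and 11.8 times SLC7A6 in mimic 2 and control 2, against 1.37 and 1.63 times in mimic 1 and control 1. Between the exchangers, SLC1A5 was 10.0 and 11.2 times SLC1A4 in mimic 2 and control 2, against 15.2 and 16.0 times in mimic 1 and control 1. SLC38A2 was 1.37 and 1.41 times SLC38A1 in mimic 2 and control 2, against 1.80 and 1.78 times in mimic 1 and control 1.

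**Figure D4:**
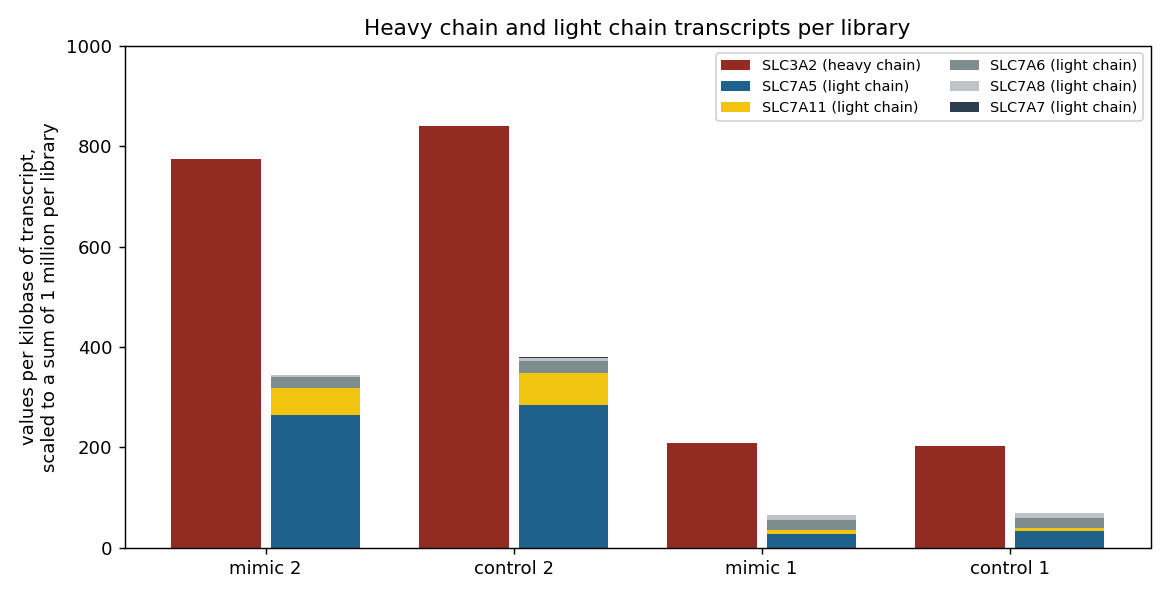
Level per kilobase of transcript, scaled to the same sum in every library, of the heavy chain gene SLC3A2 (red bars) and of the light chain genes in the table (stacked bars) in each library. The SLC3A2 bar is 2.25 and 2.21 times the light chain stack in mimic 2 and control 2, and 3.19 and 2.93 times in mimic 1 and control 1.

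At the level of single transcripts, 64 transcripts of the 9 genes were in the table and 53 had a mean of at least 10. None was called between mimic and control. The largest log2 difference, mimic minus control, was that of SLC1A5-202, at -5.06 ± 1.43 (SE). It had 13.4 in mimic 2 and 0 in mimic 1, and 167 in control 2 and 93.5 in control 1. Its share of the gene was 1.87% at most. Between the numbers 20 of the 53 transcripts were called higher in number 2 and 0 lower (limma, adjusted over 58486 transcripts). Of all transcripts tested 4.42% were called higher and 3.89% lower. Every gene had at least 1 called transcript, and 52 of the 53 were higher in number 2. The exception was SLC38A2-204, a processed transcript listed at 1.89 in mimic 2 and 0 in control 2, against 28.9 in mimic 1 and 17.7 in control 1, which was not called. When any 1 library was left out, no transcript in the whole table was called, so the single-transcript calls rest on all 4 libraries.

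A single transcript carried most of each gene. SLC7A11-201 and SLC7A1-201 held over 99% of their genes in every library, and SLC1A4-201 held 97.9% in mimic 2 and 95.6% in mimic 1, and 97.8% in control 2 and 93.8% in control 1. SLC3A2-201 held 82.3% in mimic 2 and 76.3% in mimic 1, and 83.1% in control 2 and 72.7% in control 1. It rose by 2.23 ± 0.07 (SE) on the log2 scale. SLC3A2-203, SLC3A2-208 and SLC3A2-205 were called too, at 2.05, 2.06 and 1.63. SLC7A5-201 rose by 3.44 ± 0.11, and SLC7A5-203, which starts further downstream, by 2.41 ± 0.18. The share of SLC7A5-201 in its gene was 87.6% in mimic 2 and 76.6% in mimic 1, and 85.9% in control 2 and 76.0% in control 1.

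Among the called transcripts of a gene, those of SLC1A5 covered the widest range. The main transcript SLC1A5-203 rose by 2.28 ± 0.12, while SLC1A5-205, which starts downstream, had 986 in mimic 2 and 41.4 in mimic 1, and 1061 in control 2 and 50.9 in control 1, a log2 difference of 4.45 ± 0.20. SLC1A5-201 had 1375 in mimic 2 and 797 in mimic 1, and 1404 in control 2 and 671 in control 1, and rose by only 0.92 ± 0.13. Its share of the gene was 6.88% in mimic 2 and 18.6% in mimic 1, and 6.38% in control 2 and 13.4% in control 1. The shares of SLC1A5-201 were thus lower in number 2 in both treatments. Reads that fit several transcripts are split by estimation, which makes the values of overlapping transcripts uncertain.

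SLC38A1-201 and SLC38A2-201, the main transcripts of the glutamine carriers, rose by 1.73 ± 0.05 and 1.44 ± 0.06. The further called transcripts were SLC38A1-202 (2.01), SLC38A1-204 (1.22), SLC38A1-210 (2.27) and SLC38A2-208 (1.74), the last annotated for nonsense-mediated decay. SLC6A9-205 had 1539 in mimic 2 and 52.2 in mimic 1, and 1453 in control 2 and 95.6 in control 1, and rose by 4.38 ± 0.33. SLC6A9-209, a short processed transcript that was also called, had 71.0 in mimic 2 and 0 in mimic 1, and 46.0 in control 2 and 1.04 in control 1. Its log2 difference of 5.35 ± 0.85 was the largest of the tested transcripts, from number 1 values at or near 0.

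Protein-coding and intron-retaining transcripts of the genes were also counted apart. Of 32 protein-coding transcripts 17 were called higher in number 2, with a median log2 difference of 2.28, where 5.88% of all protein-coding transcripts were called higher, with a median of 0.01. Of 12 retained-intron transcripts 0 were called, with a median of 0.68 and a range of 0.06 to 2.00, where 1.41% of all such transcripts were called higher, with a median of -0.10. The 0 calls among these 12 are near the share of all retained-intron transcripts and say nothing particular about the members. All 12 were higher in number 2, at low means of 16.2 to 227 over the 4 libraries. The difference in calls was not tested. Summed retained-intron values of SLC3A2, SLC38A2, SLC1A4 and SLC38A1 were far below the coding ones in every library. For the 4 genes with both kinds at a mean of at least 10, the ratio of coding to retained-intron values was tested, a comparison added after the data were seen. Of 4666 genes tested 0.257% had a ratio called higher in number 2. SLC3A2 was one of them, at 1.61 ± 0.17 on the log2 scale (adjusted p = 0.0350, limma). Its retained-intron transcripts held 1.95% in mimic 2 and 1.81% in control 2 of the sum of both kinds, against 5.98% in mimic 1 and 5.07% in control 1. The call was lost with treatment as a covariate (adjusted p = 0.136), without mimic 1 (0.0853) and without mimic 2 (0.0522). SLC38A2 had 0.77 ± 0.16 (adjusted p = 0.0843), SLC1A4 0.79 ± 0.45 (adjusted p = 0.380) and SLC38A1 0.31 ± 0.36 (adjusted p = 0.675), none of them called with limma.

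**Figure D5:**
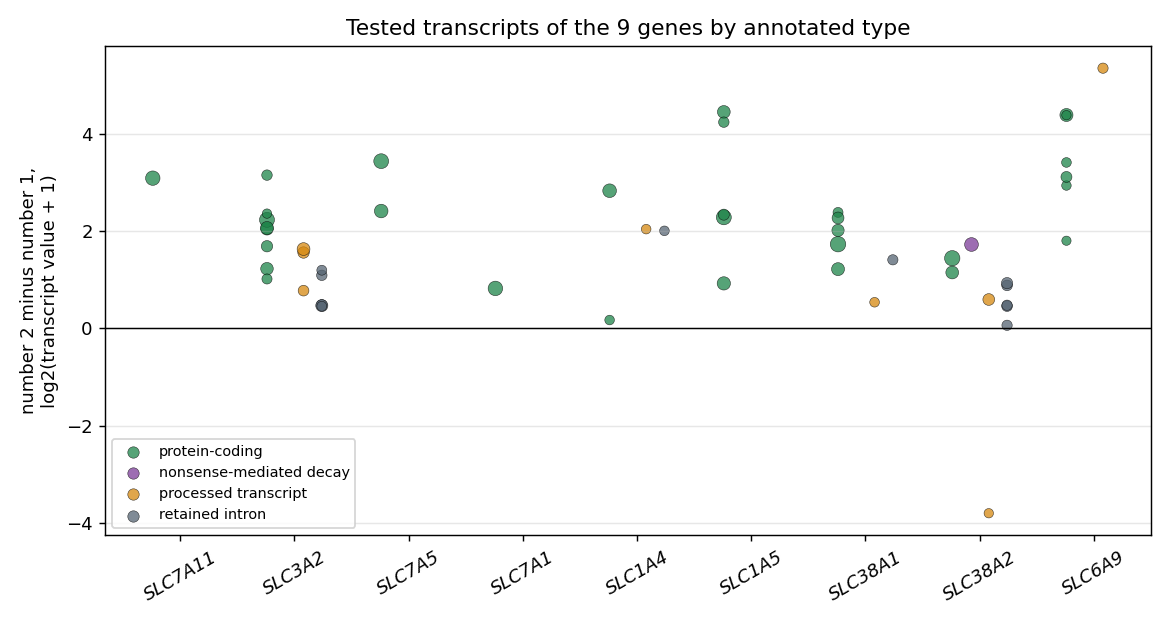
Number 2 minus number 1 difference in log2(value + 1) of the 53 tested transcripts of the 9 genes, coloured by annotated type, with larger points for higher mean values. The highest point is the processed transcript SLC6A9-209, at 5.35. Protein-coding transcripts reach 4.45, retained-intron transcripts lie between 0.06 and 2.00, and SLC38A2-204 is the only point below 0.

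Other amino acid transporter genes were called in both directions. Of 27 further plasma membrane transporter genes 22 were in the table and 17 were tested, and 5 were called higher and 5 lower in number 2, while 7 were not called, where 26.0% of all genes tested were called higher and 24.2% lower. These shares are near those of all genes, and the median log2 difference of the 17 was -0.27, against 0.01 over all genes. SLC1A1 (EAAT3), a glutamate and cysteine carrier, had 719 in mimic 2 and 1939 in mimic 1, and 867 in control 2 and 2023 in control 1, a log2 difference of -1.33 ± 0.11. SLC1A3 (EAAT1), the glial glutamate carrier, was lower in number 2 as well, by -1.90 ± 0.20 on the log2 scale, and so was SLC6A6, the taurine carrier, by -0.66 ± 0.10. SLC43A1 (LAT3), a leucine carrier, was higher, with 101 in mimic 2 and 24.3 in mimic 1, and 119 in control 2 and 29.1 in control 1. SLC1A1 and SLC1A3 belong to the family of SLC1A4 and SLC1A5, so members of that family moved in both directions. Of the same family, SLC1A2 (EAAT2) was called higher (1.21 ± 0.23, adjusted p = 0.00212, limma) and SLC1A6 was not called (-0.36 ± 0.34). The others of the list called higher were SLC7A7 (3.66), SLC43A2 (2.00) and SLC6A15 (0.45). The others called lower were SLC38A4 (-1.72) and SLC7A8 (-0.55). None of the 17 genes was called between mimic and control.

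Among carriers of lysosomes and mitochondria, 14 of 15 were tested, with 8 called higher and 4 lower in number 2 and a median of 0.37, beside the 26.0% of all genes called higher and 24.2% called lower. The lysosomal arginine sensor gene SLC38A9 rose by 0.98 ± 0.12 and SLC25A29, a mitochondrial carrier of basic amino acids, by 1.03 ± 0.11. The mitochondrial serine carrier gene SFXN1 was lower by a log2 difference of -0.77 ± 0.08, and SLC25A12, the aspartate-glutamate carrier, by -0.99 ± 0.10. The largest of these changes was below the median of the 9 plasma membrane genes.

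A list of transcription factors and cofactors taken to act on transporter genes held 9 genes. Of these, 8 were called higher in number 2, 0 lower and 1, MYC, was not called. Their median was 2.13, and 26.0% of all genes were called higher. The list was chosen with earlier results of these data known, so its share of calls is no independent evidence. ATF3, a stress-induced partner and target of ATF4, rose by 3.98 ± 0.09, the pseudokinase gene TRIB3 by 3.996 ± 0.11, the stress cofactor gene NUPR1 by 3.41 ± 0.08 and DDIT3 (CHOP) by 2.69 ± 0.10. CEBPG rose by 2.13 ± 0.09, NFE2L2 by 1.29 ± 0.07 and CEBPB by 0.99 ± 0.10. These genes, ATF4 and MYC were singled out after their values were seen. ATF4 had 17049.8 in mimic 2 and 6836 in mimic 1, and 17967 in control 2 and 7289 in control 1, a log2 difference of 1.31 ± 0.08. MYC had a log2 difference of 0.16 ± 0.11 (adjusted p = 0.244, limma).

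Of 9 genes of glutathione, which is made from the cysteine that SLC7A11 supplies, 4 were called higher, 2 lower and 3 neither way in number 2, with a median of -0.09. With 26.0% of all genes called higher and 24.2% lower, so few genes allow no reading of these shares. CHAC1, which breaks glutathione down, rose by 5.14 ± 0.18, and it had 2671 in mimic 2 and 60.3 in mimic 1, and 2633 in control 2 and 91.5 in control 1. The genes of the glutamate-cysteine ligase, GCLC and GCLM, rose by 0.96 ± 0.08 and 0.71 ± 0.08, and the lipid peroxidase gene GPX4 by 0.74 ± 0.08. Of the 6 tested genes that use glutamine or glutamate, 3 were called higher and 0 lower, namely ASNS (4.32 ± 0.08), which makes asparagine, and the aminotransferase genes GOT1 (2.39 ± 0.08) and GPT2 (1.71 ± 0.10). The mitochondrial GOT2 was not called (-0.06 ± 0.08). Of 21 genes that report amino acids to mTORC1, 8 were called higher, 4 lower and 9 neither way, with a median of 0.16, beside the same shares of all genes. The 4 with the smallest p-values were all higher. The leucine sensor gene SESN2 rose by 3.29 ± 0.09, the Rag GTPase genes RRAGC and RRAGD by 0.72 ± 0.08 and 0.55 ± 0.09, and the lysosomal scaffold gene LAMTOR1 by 0.62 ± 0.10. In none of these lists was a gene called between mimic and control.

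Genes beside the transporters on the chromosome were called at shares near those of all genes, 26.0% higher and 24.2% lower. The 16 nearest tested protein-coding genes outside the set comprised 5 called higher, 4 called lower and 7 not called in number 2, with a median log2 difference of 0.05 and a range of -1.72 to 0.87. B4GALT2, 0.33 kb from SLC6A9, was not called (0.17), and SLC38A4, next to SLC38A2, was lower (-1.72). SLC38A1 and SLC38A2 themselves lie 88.2 kb apart. By centred log2 values over the 4 libraries, the protein-coding genes outside all lists nearest to the median of the 9 were CH25H (Euclidean distance 0.0707), JDP2 (0.0890) and KDM6B (0.130), among 10938 candidates. CH25H, the cholesterol 25-hydroxylase gene, had 281 in mimic 2 and 57.6 in mimic 1, and 317 in control 2 and 70.7 in control 1. Copies that could take reads of the transporters had low values, such as the pseudogene SLC7A5P1 with 20.8 in mimic 2 and 7.24 in mimic 1, and 14.6 in control 2 and 9.39 in control 1.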

How the data were processed

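Poly(A)-selected RNA of 4 U87 libraries was sequenced as pairs with a directional kit, per the labels' protocols. Kallisto, DESeq2 and the build hg38 are named, with no version, per the submitters' processing notes; the annotation release is not given in the sources used here. The deposited table holds a signal, a normalized read count per Ensembl transcript. Low values were whole multiples of a step in 95.6% to 99.7% of cases (tolerance 0.1), and dividing by the step gave the reads used for edgeR and DESeq2. Of 100809 transcripts 90627 (89.9%) matched GENCODE v29 by identifier and were summed per gene. The unmatched held 3.26% to 3.57% of each library's values.

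Genes or transcripts with a mean of at least 10 were tested with limma with a trend on log2(value + 1), two-sided, with Benjamini-Hochberg adjustment at 0.05 over all of them, which understates the change of low genes. Mimic was set against control, and number 2 against number 1, with 2 libraries a group and no other term, so that each difference is in the residual spread of the other. The gene test between the numbers was tested on simulated data, and the other tests were not. The members and lists were chosen with earlier results of these data known. Named were all 9 members, their highest transcript and every called one, up to 4 genes of each list with the smallest p between numbers, and the 3 genes nearest in pattern. Other genes and transcripts were named with their values known. Other pseudocounts, filters, scalings, tools, a replicate block and each library left out were tried. Tables and figures were made in Python 3.11.15 (pandas 2.3.3, numpy 2.4.6, matplotlib 3.10.9) and fits in R 4.3.3 (limma 3.58.1, DESeq2 1.42.0, edgeR 4.0.16).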

Additional observations from a re-analysis of the deposited data

How the results depend on the processing

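The 9 genes' differences between the numbers kept their direction and their call in all 126 values under other settings and all 36 with a library left out. The count of genes called between the numbers, 8298, was 6054 to 8892 under other settings and 5160 to 7941 with a library left out. It was 5160 without mimic 2 and 5420 without control 2. The count of transcripts called, 4864, was 1792 with treatment as a covariate and 0 to 0 with a library left out. The count of genes with a called ratio of coding to retained-intron values, 20, was 125 with a pseudocount of 5, 0 with treatment as a covariate and 0 to 49 with a library left out, being 0 without mimic 1 and 49 without control 2. The ratio of SLC38A1 ran from -0.20 to 0.83. The cause of these shifts was not tested.

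Between mimic and control 0 genes were called with each library left out. The deviations of libraries that share a number correlated at r = 0.745 over 16523 genes, but the labels give no pairing and there are only 2 pairs. The replicate block gave 117 called genes with limma, 91 with edgeR and 5 with DESeq2, and no member was called; the lowest adjusted p of a member was 0.319 (SLC6A9, limma). The sign of SLC38A2 turned with edgeR (-0.0074) and DESeq2 (-0.0089), and that of SLC6A9 with edgeR (0.0011). With a library left out the treatments held unequal numbers. Every member was then higher in the mimic without mimic 1 or control 2 and lower without mimic 2 or control 1, and the log2 differences ran from -1.66 to 1.59 (SLC7A11), -1.17 to 0.94 (SLC3A2), -1.86 to 1.46 (SLC7A5), -0.49 to 0.36 (SLC7A1), -1.43 to 1.37 (SLC1A4), -1.29 to 0.93 (SLC1A5), -0.85 to 0.94 (SLC38A1), -0.74 to 0.80 (SLC38A2) and -2.75 to 1.94 (SLC6A9). A count of 0 in this comparison therefore does not show that the mimic left these genes unchanged. The ratio test and the blocked edgeR and DESeq2 fits were chosen after seeing the data.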

Other observations

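Cell type markers also differed between the numbers, as values beside the transporter result. The neural stem cell filament gene NES was lower in number 2, with 185 in mimic 2 and 187 in control 2, against 911 in mimic 1 and 888 in control 1. The glial lineage factor gene OLIG2 was higher, with 419 in mimic 2 and 411 in control 2, against 83.6 in mimic 1 and 101 in control 1. Of the 4 neuron markers in the table, the synaptic gene SNAP25 was lower, with 80.2 in mimic 2 and 88.5 in control 2, against 712 in mimic 1 and 778 in control 1. The synaptic vesicle gene SYT1 was higher, with 1208 in mimic 2 and 1159 in control 2, against 420 in mimic 1 and 433 in control 1, and SLC17A7 and GAD1 were not called. Of the 5 epithelial markers, the splicing factor gene ESRP1 had 173 in mimic 2 and 201 in control 2, against 3.60 in mimic 1 and 13.5 in control 1. The adhesion gene EPCAM was lower, with 11.4 in mimic 2 and 16.8 in control 2, against 41.4 in mimic 1 and 45.7 in control 1. They were singled out with their values known, and their relation to the transporters was not tested.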
